A study of Homo sapiens with 2 samples.

Results

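The 10 growth factor receptor tyrosine kinase genes described here in HEK293T cells were EGFR, ERBB2, ERBB3, FGFR1, FGFR2, FGFR3, FGFR4, IGF1R, INSR and MET. They were chosen by name, without use of their levels, and all 10 had a row among the 57736 genes of the expression tables. HEK293T is an established line derived from human embryonic kidney cells that also carries the SV40 large T antigen. The study mapped the genomic contacts of ribosomal DNA in these cells and also sequenced RNA after heat shock, which is not described here. The samples described here are poly(A)+ RNA from 1 group of untreated, wild type cells in 2 replicates, sequenced with 50-base reads. The cells were kept in DMEM supplemented with 10% FBS and reached 80% confluency, so serum growth factors were present in both replicates. Nothing in the labels says that the replicates came from separate cultures, so their spread may be technical. The replicates held 10593491 and 10104118 estimated counts, at which a gene with 0 counts may still reach 0.283 and 0.297 CPM, counts scaled to the library total (3 counts, counting error only). IGF1R is among the genes that the study lists as contacting ribosomal DNA, a list that it describes as biased toward long genes. The study places ERBB3 among the genes whose contacts increased after heat shock.

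Receptor tyrosine kinases span the plasma membrane once. Binding of a growth factor outside the cell brings receptor chains together or rearranges them, the kinase domains inside phosphorylate each other, and adaptor proteins recruited to the phosphorylated tails switch on the RAS-MAPK and PI3K-AKT pathways. The EGF receptor family answers to EGF-like ligands and neuregulins, the FGF receptors to fibroblast growth factors held by heparan sulfate, the insulin receptor family to insulin and insulin-like growth factors, and MET to hepatocyte growth factor. In the kidney, FGF receptors and MET are known for their parts in branching of the developing organ.

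All 10 receptors were detected. TPM is a level divided by transcript length and scaled to a common total, and a gene was called detected where both replicates reached a TPM of 1. The background was 27.7% of all 57736 genes and 63.7% of the 19391 protein-coding genes. FGFR1 stood highest, at 57.7 and 48.6 TPM in replicates 1 and 2, and IGF1R followed at 34.2 and 32.8 TPM. ERBB3 stood lowest, at 3.32 and 1.61 TPM, and the mean of FGFR1 was 21.6-fold that of ERBB3. The median over the receptors was 15.9 TPM, above the median of all protein-coding genes, 6.5 TPM, and below that of the 12345 detected protein-coding genes, 21.2 TPM. FGFR1, IGF1R and FGFR3 lay above this last median and the other 7 receptors below it, with percentiles among detected protein-coding genes running from 7.65 for ERBB3 to 77.0 for FGFR1. These are levels of RNA in bulk cultures, in which fewer expressing cells and less RNA per cell cannot be told apart.

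In order of mean TPM the receptors were FGFR1, IGF1R, FGFR3, MET, FGFR4, FGFR2, ERBB2, INSR, EGFR and ERBB3. In 7 of the 9 steps between neighbours the values of the replicates were separated. The exceptions were MET against FGFR4, and FGFR2 against ERBB2. By the intervals that the quantification program RSEM gives for each TPM, which cover the assignment and sampling of reads, only 3 of the 9 steps were separated, those of IGF1R over FGFR3, ERBB2 over INSR and INSR over EGFR. RSEM builds this interval around another estimate than the TPM itself, and for 4 receptors (ERBB2, ERBB3, EGFR and IGF1R) the TPM lay outside it in at least a single replicate.

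**Figure D1:**
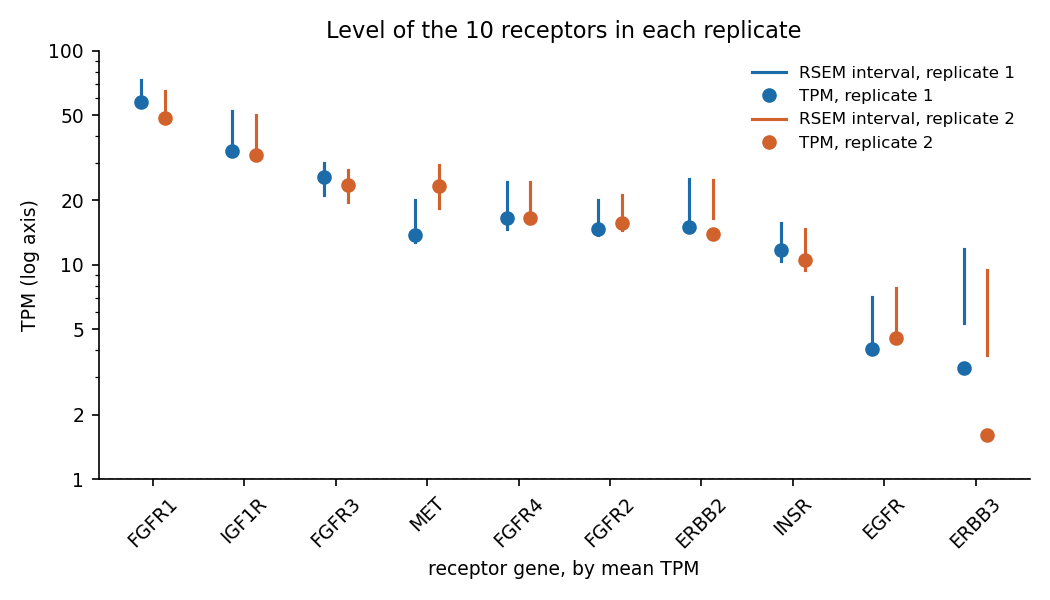
TPM of the 10 receptors (log axis) in replicate 1 (blue) and replicate 2 (orange), ordered by mean TPM, with points for the TPM and vertical lines for the RSEM interval of that replicate. The values run from 1.61 for ERBB3 to 57.7 for FGFR1, and MET and ERBB3 show the widest gaps between the replicates.

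The receptors of a family are alike in sequence, so the coding parts of their canonical transcripts were searched for identical stretches that could hold a whole read. Over the 45 pairs of receptors, the longest identical stretch had 31 bases, and 0 pairs reached the read length of 50. Within a family the longest stretch of a pair had between 17 and 31 bases, and between families at most 22. The windows below show the longest stretch of 3 pairs, 1 from each family with several receptors, with the identical bases in capitals and 15 bases of flank on each side in lower case. They are reference sequence of GRCh37, 5′ to 3′ on the coding strand, and the flanks show how soon the receptors of a pair diverge.
FGFR3: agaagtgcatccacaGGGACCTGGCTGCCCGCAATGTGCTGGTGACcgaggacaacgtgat
FGFR4: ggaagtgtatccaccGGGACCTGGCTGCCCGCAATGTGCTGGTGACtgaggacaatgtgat
IGF1R: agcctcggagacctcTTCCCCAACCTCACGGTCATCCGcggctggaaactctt
INSR: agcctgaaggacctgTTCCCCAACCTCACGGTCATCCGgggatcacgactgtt
EGFR: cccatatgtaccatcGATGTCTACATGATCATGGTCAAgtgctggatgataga
ERBB2: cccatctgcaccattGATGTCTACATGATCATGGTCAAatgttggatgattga
The FGFR3 window lies at chr4:1807663-1807833 (plus strand) and the FGFR4 window at chr5:176522720-176523113 (plus strand), both across exons 13 and 14, in the part that codes for the kinase domain. The IGF1R window lies at chr15:99250979-99251031 (plus strand) and the INSR window at chr19:7267664-7267716 (minus strand), both within exon 2, in the part that codes for the outside of the receptor. The EGFR window lies at chr7:55266517-55268021 (plus strand) and the ERBB2 window at chr17:37882067-37882827 (plus strand), both across exons 23 and 24, again in the kinase part. Windows across 2 exons are printed without the intron between them.

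Over the transcripts of the tables found in the annotation, and the canonical ones, no stretch of 50 bases from any of the 10 receptors was found in another of them or in any other receptor tyrosine kinase. The share of such stretches also found in some other gene ran from 0% for FGFR3 and IGF1R to 5.71% for ERBB2. In ERBB2, 473 of 618 shared stretches matched MIEN1 and 95 matched PGAP3, the neighbouring genes on the opposite strand. The estimated counts were whole numbers (within 0.005) in both replicates for 5 receptors, ERBB3, FGFR2, FGFR3, FGFR4 and IGF1R, and the largest error from the assignment of reads was 1.57 counts, or 0.387% of the count, for ERBB2. EGFR, ERBB2, ERBB3 and FGFR1 overlap exons of another gene with a row in the tables. The overlaps of EGFR, ERBB2 and FGFR1 include genes on the opposite strand. Without strand, which is not given for the counting, reads from stretches shared with those genes cannot be told apart. For FGFR1 the antisense RNA ENSG00000255201 shared 107 stretches of 50 bases, while LETM2 shared no such stretch with the FGFR1 transcripts used. The overlap of ERBB3 is with a gene on the same strand, spans 31 bases, fewer than a read, and held no shared stretch of 50 bases.

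EGFR, on chromosome 7 at 55086710 to 55279321 (plus strand, GRCh37), is the receptor for EGF and TGFA. It held 236 and 241 estimated counts and 4.05 and 4.57 TPM, a mean of 4.31 ± 0.368 (SD, n = 2). ERBB2, on chromosome 17 at 37844167 to 37886679 (plus strand), binds no known ligand and acts as the partner of the other family members. Its levels were 14.97 and 13.89 TPM, from 432 and 405 counts, so ERBB2 was 3.70 and 3.04 times EGFR by TPM. ERBB3, on chromosome 12 at 56470583 to 56497289 (plus strand), binds neuregulins and has little kinase activity of its own. It had 43 and 24 counts, the fewest of the 10 receptors. ERBB4, the remaining family member, lay at 1.00 and 1.77 TPM. ERBB2 thus gave 63.9% ± 0.382 (SD, n = 2) of the TPM of the family, EGFR 19.1% ± 2.53 and ERBB3 10.8% ± 4.85. The share of ERBB3 was 4.64% per canonical transcript and 4.46% per merged exons, where ERBB4 had 8.28%. By TPM, ERBB3 gave 14.2% of the family in replicate 1 and 7.37% in replicate 2, and ERBB4 gave 4.28% and 8.10%. The order of ERBB3 and ERBB4 thus rests on the length used and on the replicate. The antisense gene EGFR-AS1, which shares 186 exonic bases with EGFR, had 1.10 counts in each replicate. MIEN1 and PGAP3, which share 571 and 144 exonic bases with ERBB2 on the other strand, had 203 and 227, and 58 and 51 counts. The gene ENSG00000257411, on the same strand as ERBB3 and sharing 31 exonic bases with it, had 131 and 223 counts, more than ERBB3 itself.

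Of the FGF receptors, FGFR1 (chromosome 8, 38257733 to 38326352, minus strand) held 797 and 714 counts, giving a mean of 53.1 ± 6.43 TPM (SD, n = 2). FGFR2 (chromosome 10, 123237846 to 123357972, minus strand) had 313 and 330 counts and 14.7 and 15.6 TPM. FGFR3 (chromosome 4, 1795020 to 1810599, plus strand) had 490 and 469 counts and 25.7 and 23.6 TPM. All 4 genes of this family were thus detected side by side, each by at least 205 counts in each replicate. FGFR4 (chromosome 5, 176513906 to 176525145, plus strand), the receptor that FGF19 uses together with the co-receptor KLB, had 205 and 225 counts and 16.6 and 16.5 TPM. This was the smallest SD in TPM among the receptors, although by CPM the replicates differed by 0.20 on the log2 scale, and the length RSEM used was 1700 and 1945 nt. FGFR1 gave 48.4% ± 2.63 (SD, n = 2) of the TPM of the family, FGFR3 22.5% ± 0.144, FGFR4 15.2% ± 0.938 and FGFR2 13.9% ± 1.54. FGFR1 exceeded FGFR3 2.25- and 2.06-fold by TPM, but the order of this pair rests on the length used: counts of FGFR1 per base of merged exons were 0.459 and 0.429 times those of FGFR3. Per merged exons FGFR3 held 48.3% and FGFR1 21.5% of the family, and per canonical transcript 29.1% and 34.6%. Of the genes overlapping FGFR1 exons, LETM2 on the opposite strand had 51 and 49 counts and the antisense RNA ENSG00000255201 had 1.60 and 5.00.

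IGF1R (chromosome 15, 99191768 to 99507759, plus strand), the receptor for both insulin-like growth factors, drew the most reads of the 10 receptors, 1726 and 1671 counts. Its mean was 33.5 ± 0.997 TPM (SD, n = 2). INSR (chromosome 19, 7112266 to 7294425, minus strand), the insulin receptor, had 536 and 500 counts and 11.8 and 10.6 TPM. IGF1R was 2.90 and 3.10 times INSR by TPM and 2.49 and 2.58 times by counts per base of canonical transcript, so this order did not turn on the length used. IGF1R gave 74.9% ± 0.838 and INSR 25.0% ± 0.859 (SD, n = 2) of the TPM of the family, while the insulin receptor-related receptor INSRR gave 0.123%.

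MET (chromosome 7, 116312250 to 116438431, plus strand), the receptor for hepatocyte growth factor, had nearly equal reads in the replicates, 573 and 616 counts, but 13.8 and 23.3 TPM. Its mean of 18.5 ± 6.72 TPM (SD, n = 2) had the widest SD of the receptors. The counts were 1.08-fold and the TPM 1.69-fold higher in replicate 2. RSEM divided by a length of 5615 nt in replicate 1 and 3731 nt in replicate 2. The RSEM intervals, 12.8 to 20.2 and 18.4 to 29.2 TPM, overlapped. Within its family MET gave 96.3% ± 2.10 (SD, n = 2) of the TPM, the rest being MST1R, the receptor for macrophage-stimulating protein.

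The length by which RSEM divides a gene's counts is the mean length of its transcripts weighted by their estimated abundance, and it was shorter than the canonical transcript for all 10 receptors in both replicates. For FGFR1 it was 1901 and 2094 nt against a canonical transcript of 5697 nt, or 33.4% and 36.7%. ERBB3 was similar, at 31.8% and 37.8%. ERBB2 was nearest to its canonical transcript, at 86.0% and 90.2%. A short length raises the TPM, and a fixed length changed the top of the order. By CPM per kilobase of canonical transcript, IGF1R ranked 1 with 13.4 ± 0.141 and FGFR1 ranked 2 with 12.8 ± 0.572 (SD, n = 2). The canonical transcript of IGF1R, of 12235 nt, was not among the transcripts of the tables. RSEM's length for IGF1R therefore could not include it, which limits that comparison and the rank of IGF1R by this length. By merged exons, which for FGFR1 add up to 17201 nt, IGF1R ranked 1, FGFR3 2, MET 3 and FGFR1 6. EGFR ranked 9 and ERBB3 10 by TPM and by each of the 3 fixed lengths.

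**Figure D2:**
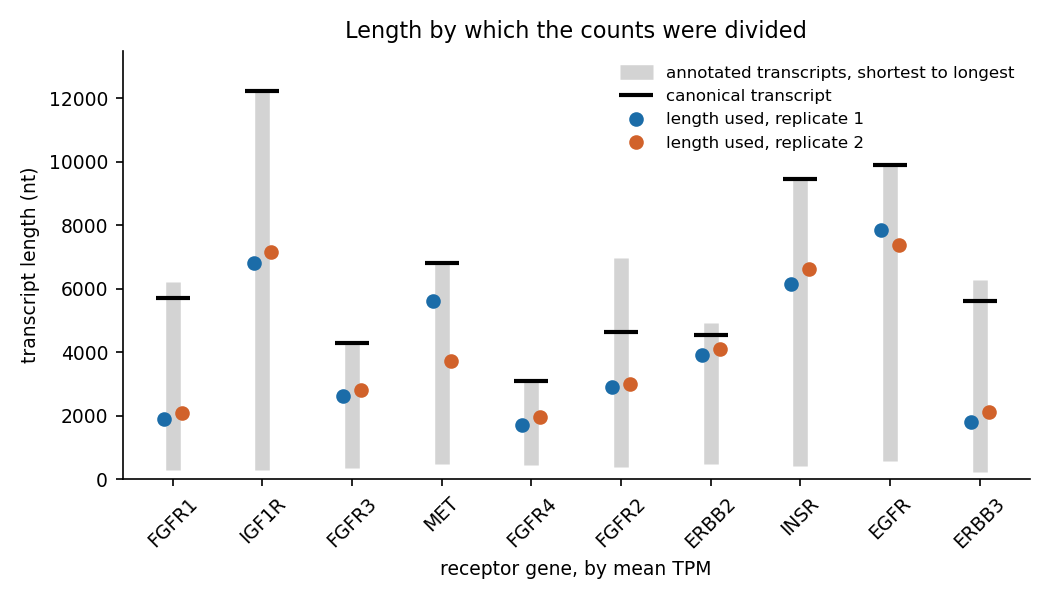
Transcript length (nt) for each receptor, with the grey bar from the shortest to the longest annotated transcript, the black line for the canonical transcript and points for the length that RSEM used in replicate 1 (blue) and replicate 2 (orange). Every point lies under its black line, and only MET and EGFR have the shorter length in replicate 2.

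Receptor reads were also compared between the libraries. Rounded counts were compared by a two-sided exact binomial test, given library sizes scaled by TMM, with Benjamini-Hochberg adjustment over 17920 genes. By this test 0 of the 10 receptors passed an adjusted p of 0.05, against 3.88% of all genes tested. With 10 genes, a count of 0 cannot be set apart from that share. The test compares these libraries, not conditions, and covers counting error only. At an unadjusted p under 0.05 there were 2 receptors in this exact test, MET (p = 0.0296, adjusted p = 0.286) and ERBB3 (p = 0.0379, adjusted p = 0.325). In log2 of CPM, replicate 2 over replicate 1, MET differed by 0.17 and ERBB3 by -0.77, while the other 8 receptors lay between -0.09 and 0.20. In log2 of TPM the same ratio was 0.76 for MET and -1.04 for ERBB3. Receptors with TPM at least 1.5-fold apart numbered 2, MET and ERBB3, and by CPM only ERBB3 was that far apart. Among the 11863 detected genes with at least 100 summed counts, which hold 9 of the receptors and not ERBB3, the background was 3.27% by TPM and 1.21% by CPM. RSEM's length was longer in replicate 2 for 8 receptors and shorter for MET and EGFR.

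**Figure D3:**
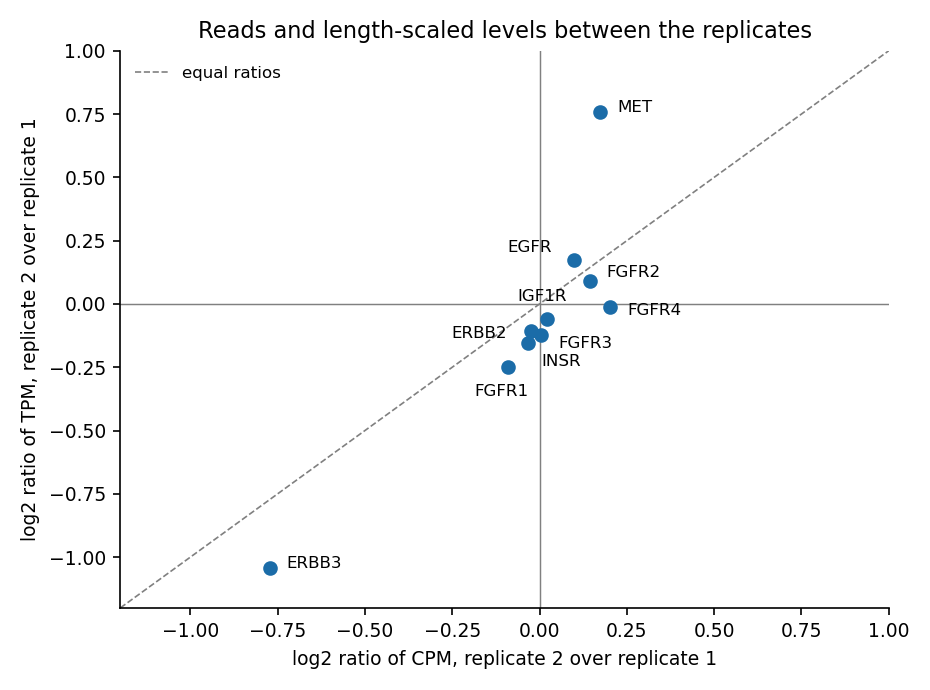
Log2 ratio of replicate 2 over replicate 1 for each receptor, by CPM on the horizontal axis and by TPM on the vertical axis, with the dashed line for equal ratios. MET lies far above the line (0.17 and 0.76), and ERBB3 is low on both axes (-0.77 and -1.04).

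Set among all 58 receptor tyrosine kinases, of which 39 were detected, FGFR1 ranked 1, IGF1R 4, FGFR3 8 and MET 9, so 4 of the 10 highest by TPM were growth factor receptors of these families. By CPM per kilobase of canonical transcript, EPHB4, RYK and PTK7 ranked 1 to 3, IGF1R 4, FGFR1 5, FGFR3 6 and MET 12, and per merged exons FGFR1 ranked 14. Of the other 48 kinases, 29 were detected (60.4%), with a median of 1.77 TPM. The 4 highest of them were RYK, a WNT co-receptor (mean 45.2 TPM), EPHB4, an ephrin receptor (38.6 TPM), PTK7, a kinase-dead receptor of planar cell polarity (32.3 TPM), and FLT4, the VEGFC receptor (31.5 TPM). The 10 receptors together held 197 and 191 TPM, or 36.8% and 36.9% of the TPM of all 58.

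**Figure D4:**
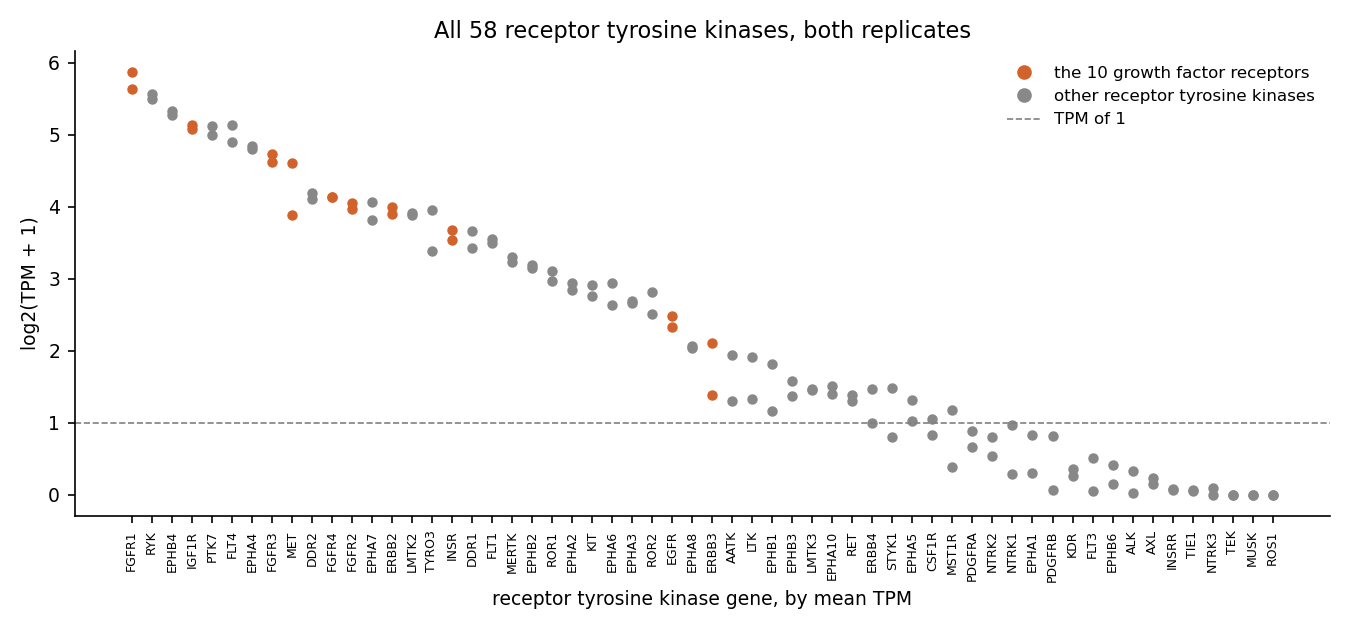
Log2(TPM + 1) of all 58 receptor tyrosine kinases in both replicates (a point each), ordered by mean TPM, with the 10 growth factor receptors in orange, the others in grey and a dashed line at a TPM of 1. The orange points lie above the dashed line, with FGFR1 at the left end and ERBB3 nearest to the line.

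RNA for the ligands was scarce. Of 11 EGF family ligands 3 were detected, namely the ERBB4 ligand NRG4 (8.39 and 11.3 TPM), HBEGF (3.06 and 2.34 TPM) and NRG2 (2.73 and 2.25 TPM), while TGFA lay at 0.73 and 1.11 TPM. Without replicate 1 the count was 5 of 11, TGFA and EGF included. Of 18 FGF ligands 2 were detected, FGF2 (4.25 and 3.49 TPM) and FGF9 (2.89 and 3.14 TPM), followed by FGF17 (1.07 and 0.90 TPM) and FGF5 (0.86 and 0.65 TPM). IGF2 was the only detected ligand of the insulin family, at 3.48 and 2.51 TPM. IGF1 had 1 and 0 counts, and INS, the insulin gene, had 0 in both. HGF, the ligand of MET, had 1 and 4 counts and 0.17 and 0.21 TPM and was not called detected. The median mean TPM of the EGF and FGF ligands was 0.150 and 0.105, beside 6.5 for protein-coding genes and 0.0750 for all genes.

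Of the co-receptors and decoy receptors, 2 of 4 were detected. FGFRL1, an FGF receptor without a kinase domain, had 37.9 and 38.8 TPM. IGF2R, which takes up IGF2 without a kinase signal, had 46.7 and 40.8 TPM, 1.36 and 1.25 times IGF1R. By counts per base of merged exons IGF2R was 0.909 and 0.866 times IGF1R, so the order of this pair rests on the length used. The klothos that FGF19, FGF21 and FGF23 require were not detected, with KLB at 0.42 and 0.46 TPM and KL at 1 and 0 counts. All 10 heparan sulfate proteoglycans, the surface molecules that hold FGFs to their receptors, were detected, led by the glypican GPC3 (56.3 and 51.6 TPM), the syndecans SDC2 (52.4 and 39.5 TPM) and SDC3 (20.76 and 19.98 TPM), and GPC4 (18.8 and 18.1 TPM). IGF binding proteins were detected for 3 of 6, IGFBP2 (44.1 and 42.7 TPM), IGFBP5 (13.6 and 15.4 TPM) and IGFBP4 (4.49 and 3.24 TPM), with IGFBP6 at 0.40 and 0.63 TPM. Proteases that act on the receptors or their ligands were detected for 3 of 6. These were ADAM10 (24.7 and 34.6 TPM), FURIN (26.9 and 22.7 TPM) and ADAM17 (15.9 and 15.2 TPM), which shed EGF-like ligands or cut receptor precursors. HGFAC, which activates HGF, lay at 0.19 and 0.14 TPM, and the other HGF-cutting proteases, HPN and ST14, had at most 2 counts.

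Docking and adaptor proteins were detected for 19 of 21, all but SHC3 and SHC4. IRS4, an insulin receptor substrate originally purified from HEK293 cells, stood far above the rest at 398 and 395 TPM, 11.6 and 12.1 times IGF1R. Next came GRB2, the adaptor that brings SOS to the receptors (111 and 110 TPM), PTPN11, the phosphatase SHP2 (75.2 and 70.2 TPM), and CRKL (70.4 and 65.0 TPM). IRS1 and IRS2, named after their values were seen, had 1.90 and 1.51 TPM and 1.52 and 1.34 TPM.

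Every one of the 20 genes of the RAS-MAPK and PI3K-AKT core was detected, with a median mean TPM of 43.3. Among the highest were the MAPK kinase MAP2K2 (198 and 206 TPM), the survival kinase AKT2 (105 and 101 TPM) and the MAP kinase MAPK3 (98.1 and 96.8 TPM). Negative regulators were detected for 17 of 24, led by the phosphatases PTPN1 (55.6 and 49.9 TPM) and PTPN2 (32.2 and 34.1 TPM), the receptor-binding adaptor GRB10 (35.1 and 30.8 TPM) and the RAS inactivator NF1 (27.7 and 23.6 TPM).

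Of 17 growth factor response genes 9 were detected. MYC (73.7 and 71.6 TPM), CCND1 (63.6 and 53.5 TPM) and JUN (56.2 and 53.6 TPM), genes of growth and cell cycle entry, were the highest, and SPRY2, a feedback inhibitor of RAS signalling, had 10.5 and 9.34 TPM. Immediate early genes, induced soon after a stimulus, stood at both ends of the list, with MYC and JUN high, JUNB at 8.12 and 7.89 TPM, EGR1 at 1.26 and 0.86 TPM and FOS at 1.11 and 0.72 TPM. EGR1, FOS and the feedback genes DUSP6 (0.56 and 0.30 TPM) and SPRY4 (0.03 and 0.12 TPM) were not called detected. JUNB, EGR1, FOS, DUSP6 and SPRY4 were named after their values were seen. SPRY2, SPRY4 and DUSP6 are counted among the negative regulators as well.

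**Figure D5:**
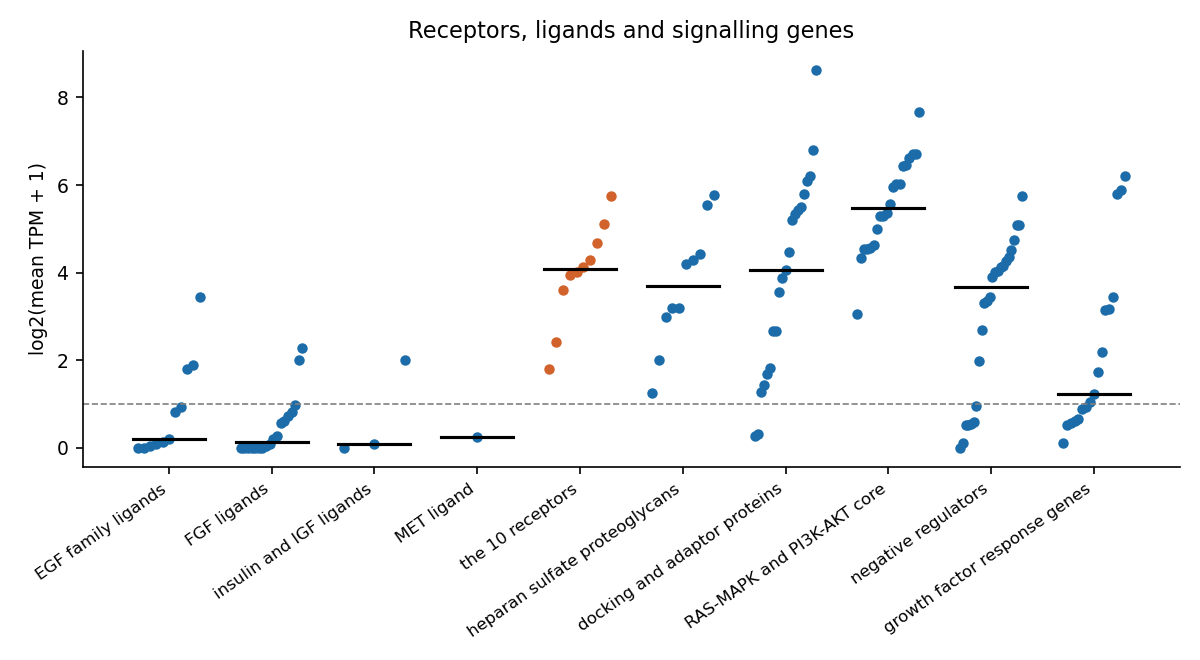
Log2(mean TPM + 1) of each gene in the ligand lists (left), the 10 receptors (orange) and the surface and signalling lists (right), sorted within a list, with black lines for list medians and a dashed line at a TPM of 1. The medians of the 4 ligand lists lie under the dashed line, and those of the receptors and of every list to their right lie above it.

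The labels give kidney as the tissue of the line. Of the 15 kidney markers with a row, 4 were detected, WT1 (10.0 and 10.5 TPM), LRP2 (8.28 and 9.96 TPM), EMX2 (4.85 and 4.88 TPM) and PAX2 (4.34 and 2.47 TPM), and 6 were at 0 counts in both replicates, among them UMOD and AQP2 of mature nephrons. Detected markers of other cells were 0 of 2 for endothelium and 1 of 5 for fibroblasts (COL1A1, 10.3 and 7.51 TPM). PTPRC and CD3E, defining markers of blood cells, had at most 1 count in a replicate, as did VWF and CDH5 of endothelium.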

How the data were processed

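Poly(A)+ RNA-seq libraries of 2 replicates of HEK293T cells (1 group) were analysed from the gene tables that the authors deposited. Per the submitters' processing notes these tools were used: Trimmomatic 0.36, STAR 2.6.1c and RSEM 1.3.1, with GRCh37. The deposited tables hold estimated counts (RSEM's expected counts, not normalized), TPM and FPKM, with lengths in nt and RSEM's intervals and posterior SDs. The methods name featureCounts for counting, but the columns are those of RSEM. A table of the whole series held the authors' pooled values, whose counts differed from the sum of the replicates by at most 0.0265% for the receptors. For strand use in counting, the sources used here give nothing. The posterior SDs and intervals of the deposited tables are treated as scores that RSEM computed for the authors from its read assignments.

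The 10 receptors were chosen by name, without use of their levels. That choice, and the choice of the tests and of the lists of ligands, partners and markers, was made with earlier results of these data known. All receptors were named, with up to 4 of the highest genes of most lists, each detected ligand and each gene that shares exonic bases with a receptor. Genes were called detected where both replicates reached a TPM of 1. Rounded counts, for genes whose 2 counts added up to 10 or more, were compared between the libraries by an exact binomial test (scipy 1.17.1) with TMM factors (edgeR 4.0.16, R 4.3.3), after a test on simulated data. Log2 levels used a pseudocount of 1. Gene positions, lengths and sequences came from a GENCODE annotation and genome of GRCh37, in which 96.1% of the identifiers matched. Its transcripts are not all those of the tables, and of the 31425 genes with 1 transcript 92.0% had equal length. Protein sequences were not analysed here, and a few listed genes are not reported here. The alternatives were other thresholds, units, lengths, scalings and filters, and leaving out a replicate. Dividing by the canonical transcript, ranking all receptor tyrosine kinases by fixed lengths, and the comparison of TPM with CPM between the replicates, were added after seeing the data.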

Additional observations from a re-analysis of the deposited data

How the results depend on the processing

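All 10 receptors stayed detected under a TPM of 0.1, an FPKM of 1, a minimum of 10 counts, TPM rescaled over protein-coding genes, the pooled table and either replicate alone, and 8 did at a TPM of 5. Their summed TPM of 194 became 279 when rescaled over protein-coding genes, which held 70.7% and 68.5% of the TPM. The share of ERBB2 in its family became 70.8% per longest and 72.0% per canonical transcript. That of FGFR1 became 21.5% per merged exons, 34.9% per longest and 34.6% per canonical transcript, and that of IGF1R 71.7%, 71.6% and 71.6%. Of 45 pairs of receptors, 36 kept their order when counts were divided by merged exons and 41 by the longest or canonical transcript. The order was kept in all 45 without replicate 1 and in 41 without replicate 2, where MET ranked 7 in place of 4. The median level, log2(TPM + 1), was 4.07, against 3.996 with a pseudocount of 0.1 and 3.98 to 4.09 with a replicate left out. The median over detected protein-coding genes was 4.47. Of the pathway genes 88 were detected, and between 70 (TPM of 5) and 115 (TPM of 0.1) under the alternatives. The detected EGF ligands, 3 in the report, were 1 to 6, the FGF ligands, 2 in the report, 0 to 8, and the other receptor tyrosine kinases 18 at a TPM of 5. At a TPM of 0.1, HGF, 5 IGF binding proteins and 16 response genes were detected, and at a TPM of 5 no insulin family ligand. The libraries differed in 696 of 17920 genes, in 752 with RLE and 704 with total counts, in 564 of 30700 without a filter, in 506 of 11885 with 100 summed counts and in 71 of 8675 with whole counts only. No receptor tested was called in these exact tests, which held 10 receptors, or 9 with 100 summed counts (not ERBB3) and 5 with whole counts, with adjusted p from 0.248 to 0.453 for MET, and the sign of the ratio of FGFR3 depended on the scaling. No paired analysis was possible because there is 1 group. With 2 replicates, no spread between cultures can be separated from technical spread, and 43 and 24 counts limit ERBB3.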

Other observations

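The insulin receptor substrates were unequal under every length by which counts were divided. IRS4 held 11557 and 11046 estimated counts, while IRS1 held 84 and 54 and IRS2 79 and 67. By TPM, IRS4 was 210 and 262 times IRS1 and 262 and 295 times IRS2. By counts per base of merged exons, the measure that gave the smallest ratios, IRS4 was 82.9 and 123 times IRS1 and 71.8 and 80.9 times IRS2. The receptors that use these substrates, IGF1R and INSR, were both detected. Of their ligands, IGF2 was detected with 131 and 94 counts, and INS and IGF1 had at most 1 count in a replicate.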
